A study of Mus musculus with 10 samples.

Results

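Dendritic cell genes were followed in RNA from lineage-depleted mouse bone marrow as a set of 10 genes, of the 25178 in the count table. They were taken by symbol. Siglech, Spib, Klk1, Cox6a2 and Pacsin1 are genes of plasmacytoid dendritic cells, and Xcr1, Clec9a, Batf3, Zbtb46 and Itgax are genes of conventional dendritic cells. All 10 symbols matched 1 row each. The groups were 5 female and 5 male mice of the inbred strain C57/BL6 at steady state, with 1 library per mouse from the marrow of 1 hindlimb. Both groups were depleted on magnetic beads of cells with mature lineage markers, and the labels give neither the mice's age nor the antibodies used, so whether dendritic cells were among the cells removed is not known. The design asks whether blood formation differs between the sexes at steady state.

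Dendritic cells sense pathogens and present antigen to T cells, and they form from bone marrow progenitors under the cytokine Flt3 ligand. Plasmacytoid dendritic cells release large amounts of type I interferon when Toll-like receptors meet viral nucleic acid, and the E protein Tcf4 sets their identity. Conventional dendritic cells fall into a type 1 class, which depends on Batf3 and Irf8 and presents antigen from dead cells, and a type 2 class, which depends on Irf4. Both kinds finish part of their development in the marrow, so their genes can be read in a progenitor preparation from committed precursors as well as from mature cells. In bulk RNA, fewer cells of a type and less RNA per cell cannot be told apart.

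Library totals were 20754101 to 24366241 counts in females and 21136932 to 24759687 in males, so that 1 count was worth 0.0391 to 0.0519 CPM (counts scaled to a common library size with TMM factors). Stem and progenitor markers had a summed level of 2589.9 to 3928 CPM in female mice and 3114 to 3783 CPM in male mice over 12 genes. Mpo made up most of this sum, at 2222 ± 396 CPM in female mice and 2432 ± 231 CPM in male mice. The others ran from Myb (means of 302 CPM in females and 272 in males) down to Mecom (1.22 and 1.11 CPM). Xist had 805 to 1189 counts in the libraries labelled female and 0 to 4 in those labelled male, and 4 genes of the Y chromosome had 0 to 2 counts in females and 2431 to 3319 in males. Male replicates 1 and 2 stood apart on the first principal component (scores 35.3 and 36.7, with the others at most 6.04), and where leaving them out changed a value clearly, it is also given without them. The labels name no batch, and n counts mice.

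Promoters of 4 members are shown, as 1 pair of genes for each dendritic cell kind. Over the mice, Pearson's r of the levels was 0.42 for Siglech with Spib and -0.41 for Zbtb46 with Itgax. Neither passed adjustment (permutation test, adjusted p = 0.364 and 0.365). The sequences are from RefSeq (GRCm38.p6), which gave 9 of the 10 members a promoter (not Cox6a2), and run 5′ to 3′ on the gene's strand from 250 bases before the transcript start to 50 after it. Siglech lies at chr7:55767934-55768233 (plus strand) and Spib at chr7:44532022-44532321 (minus strand). In both, capitals mark the E-box CANNTG, the motif that E proteins such as Tcf4 bind. Zbtb46 lies at chr2:181424339-181424638 (minus strand), at the start that RefSeq gives inside the annotated gene. On the minus strand that gene begins at base 181459426, so the Zbtb46 window may be sequence from within the gene rather than a promoter. Itgax lies at chr7:128129300-128129599 (plus strand). In these windows capitals mark TGANTCA, the AP-1 motif that Batf factors also bind. The Zbtb46 and Itgax windows hold E-boxes too, which are left in lower case.
Siglech: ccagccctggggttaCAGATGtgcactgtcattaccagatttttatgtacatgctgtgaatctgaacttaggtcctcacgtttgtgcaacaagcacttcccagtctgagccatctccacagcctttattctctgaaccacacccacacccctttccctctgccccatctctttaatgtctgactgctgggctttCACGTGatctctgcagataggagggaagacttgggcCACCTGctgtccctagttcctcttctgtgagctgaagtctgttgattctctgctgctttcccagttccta
Spib: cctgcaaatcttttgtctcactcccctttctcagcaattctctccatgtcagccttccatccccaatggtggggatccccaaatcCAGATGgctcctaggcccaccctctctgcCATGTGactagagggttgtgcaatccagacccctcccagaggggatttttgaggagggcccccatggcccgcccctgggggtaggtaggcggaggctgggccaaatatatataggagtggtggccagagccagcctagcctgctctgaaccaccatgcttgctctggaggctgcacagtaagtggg
Zbtb46: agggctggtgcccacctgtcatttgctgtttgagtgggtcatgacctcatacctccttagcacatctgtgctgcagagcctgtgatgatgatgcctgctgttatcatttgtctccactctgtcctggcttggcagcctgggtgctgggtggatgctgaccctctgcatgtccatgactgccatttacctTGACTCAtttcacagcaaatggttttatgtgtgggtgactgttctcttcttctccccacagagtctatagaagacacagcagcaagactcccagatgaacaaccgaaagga
Itgax: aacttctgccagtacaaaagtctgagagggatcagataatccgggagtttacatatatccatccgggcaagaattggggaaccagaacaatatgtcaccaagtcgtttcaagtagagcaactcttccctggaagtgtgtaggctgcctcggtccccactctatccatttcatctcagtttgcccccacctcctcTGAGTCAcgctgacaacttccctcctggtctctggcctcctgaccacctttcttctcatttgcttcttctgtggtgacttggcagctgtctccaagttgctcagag

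The Siglech promoter held 3 E-boxes, which began 235, 56 and 20 bases before the start, and the Spib promoter held 2, at 165 and 136 bases. An E-box was in 8 of the 9 member promoters (all but Pacsin1), against 72.3% of the 32817 mouse promoters of the same length. The AP-1 motif began 61 bases before the RefSeq start in Zbtb46, inside the annotated gene, and 56 bases before the start in Itgax. It was in 2 of the 9, against 7.81% of all. Both counts out of 9 include the Zbtb46 window. Neither GAGGAAGT, the site of PU.1 and Spi-B (3.20% of all promoters), nor the composite site of ETS and IRF factors (2.72%) was in any of the 9 windows. Both strands were searched. The E-box and AP-1 motifs read the same on both strands, and overlap between different motifs was not screened for. These matches describe letters, not bound sites.

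Dendritic cell transcripts were scarce in both sexes. Set per exon length and rescaled to the same total in each library (TPM), Zbtb46 led with a mean of 8.45 TPM ± 2.08 (SD, n = 10 mice), and 42.9% of the tested genes were lower. Cox6a2 followed at 5.28 ± 1.37 TPM, and then Spib at 2.36 ± 1.54, Itgax at 1.91 ± 0.616, Siglech at 1.62 ± 0.521 and Clec9a at 1.28 ± 0.549 TPM. Klk1, Xcr1, Pacsin1 and Batf3 averaged 0.310, 0.214, 0.159 and 0.144 TPM, levels that at most 2.75% of the tested genes lay below, where the median tested gene was at 11.5 TPM. Zbtb46 exceeded Cox6a2 in 8 of 10 mice. Cox6a2 exceeded Spib in 10 of 10 mice and Siglech exceeded Clec9a in 9 of 10. Clec9a exceeded Klk1 in 9 of 10. Spib and Itgax changed places from mouse to mouse, with Spib above in 5 of 10. Itgax exceeded Siglech in 7 of 10, and neighbours among the 4 lowest genes held their order in only 6 or 7 of 10. TPM took no TMM factors, so its spread between mice can differ from that of CPM. Zbtb46 in male replicate 2 and female replicate 3 was at 4.63 and 9.21 TPM, but at 23.5 and 31.1 CPM.

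**Figure D1:**
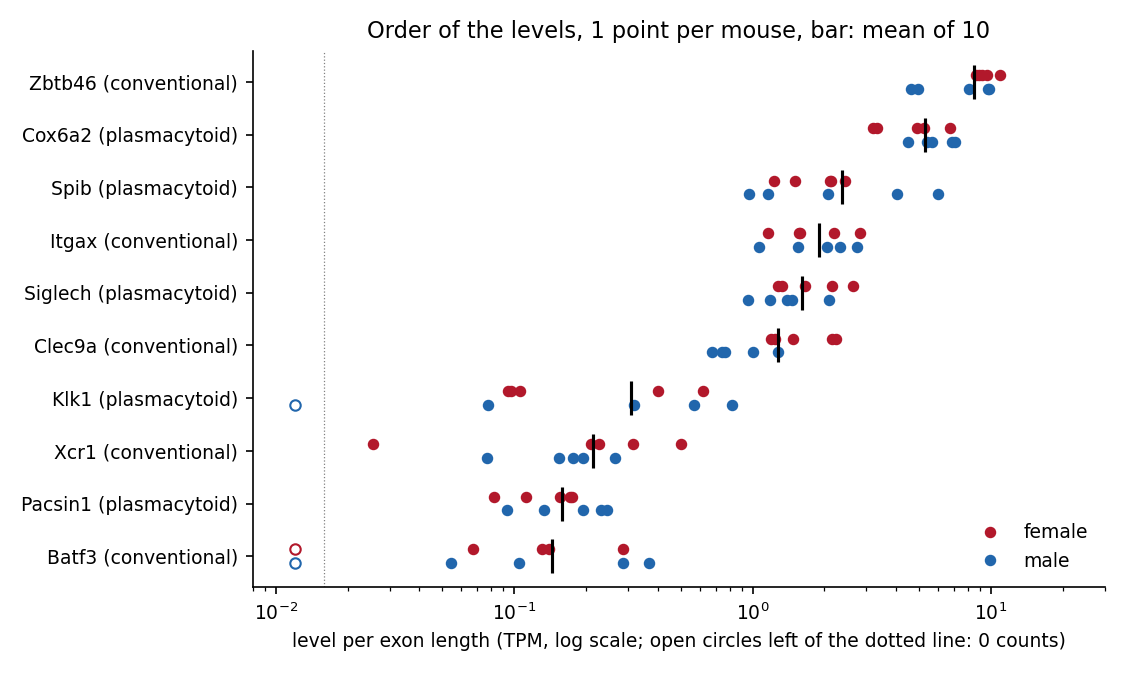
Level of each member per exon length (TPM without TMM factors, log axis) in each of the 10 mice, females above males within a row, with black bars at the mean of 10. Zbtb46 (8.45 TPM) and Cox6a2 (5.28 TPM) lead, 4 genes lie between 1.28 and 2.36 TPM, and 4 lie below 0.4 TPM with single mice at 0 counts for Klk1 and Batf3 (open circles).

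No member differed between the sexes at an adjusted p under 0.05. The edgeR quasi-likelihood test kept 7 of the 10, of which 0 were called, where 0.0545% of the 14674 genes tested were called (0.0204% higher and 0.0341% lower in females). Klk1, Xcr1 and Batf3 had too few counts to be tested. At an unadjusted p under 0.05 there were 2 of 7, Clec9a with a positive and Cox6a2 with a negative fold change, against 9.17% of all genes tested. Neither stayed under 0.05 in every edgeR fit. Without male replicates 1 and 2 the unadjusted p was 0.0046 for Clec9a and 0.24 for Cox6a2. With the replicate number as a block it was 0.087 and 0.068. Groups that did not overlap were found for 0 of the 10 members and for 1.93% of the genes tested (1.06% with all females above all males and 0.865% with all below). DESeq2 called 0 members as well, and 0.337% of its genes. At an unadjusted p under 0.05 it had 2 of the 10 members (again Clec9a and Cox6a2), beside 1841 genes in all. Those were drawn from more genes than the 17827 with an adjusted p, so no share is given.

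**Figure D2:**
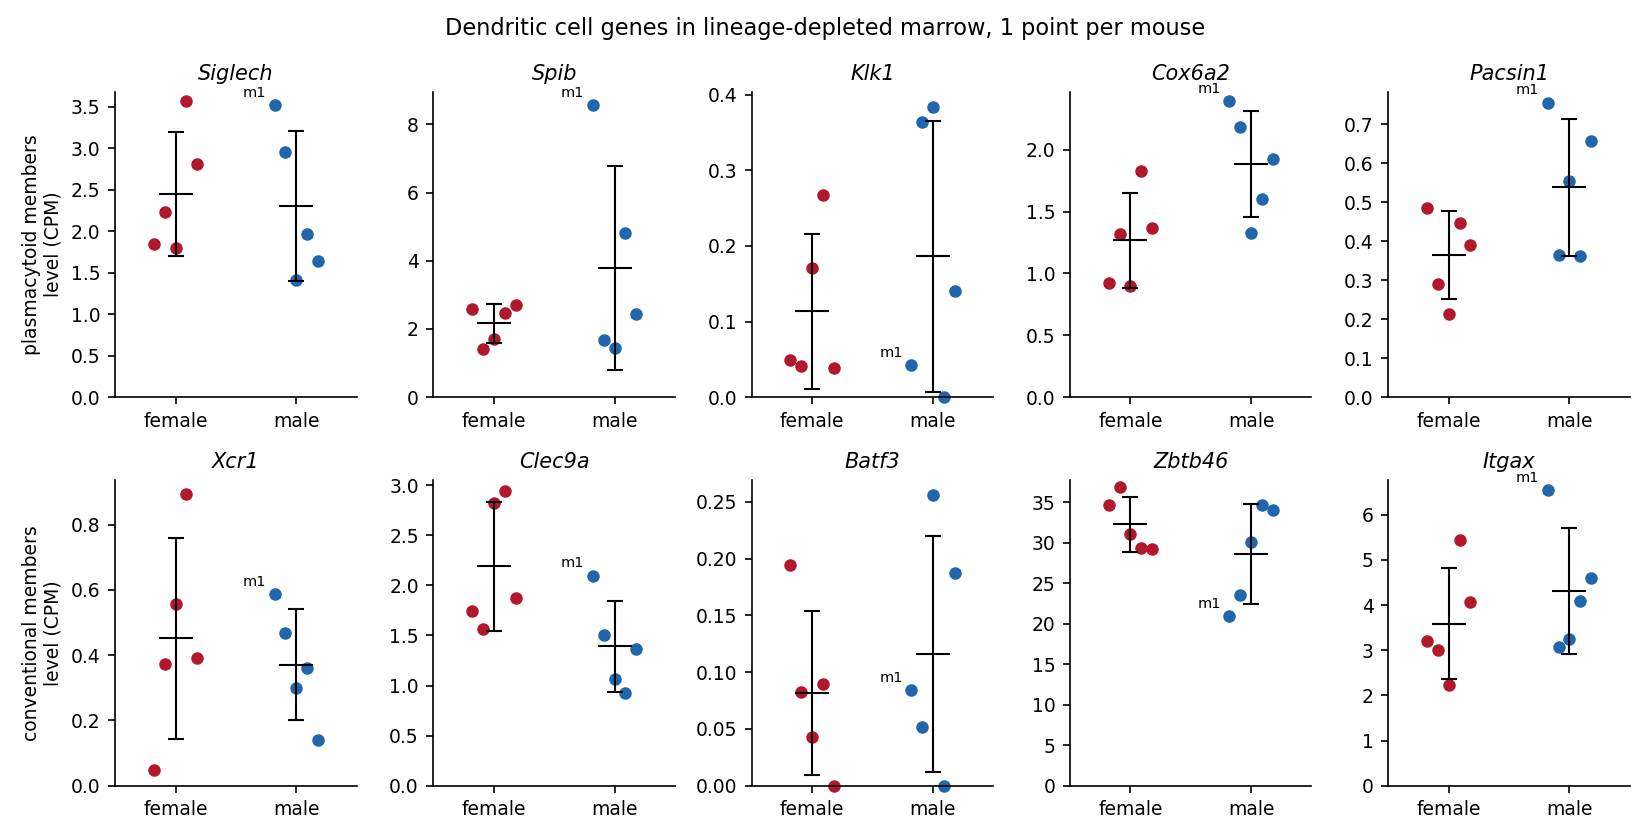
Level of each member in CPM (linear axes from 0, each panel with its own scale) in 5 female and 5 male mice, with the mean and SD in black and male replicate 1 marked m1. The sexes overlap in all 10 panels, and male replicate 1 is the highest mouse for Spib, Cox6a2, Pacsin1 and Itgax and the lowest for Zbtb46.

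Spib encodes an ETS family transcription factor needed by plasmacytoid dendritic cells and also active in B cells (chromosome 7: 44525993 to 44532071). It was at 2.57, 1.40, 1.71, 2.46 and 2.70 CPM in female replicates 1 to 5 and at 8.56, 1.66, 1.45, 4.81 and 2.44 CPM in male replicates 1 to 5. The females kept within a narrow range, while male replicates 1 and 4 lay above every other mouse and the remaining males lay among the females. Spib averaged 2.17 ± 0.575 CPM in female mice and 3.78 ± 2.98 CPM in male mice (SD, n = 5 each), a log2 fold change of -0.81 (SE 0.45, edgeR adjusted p = 0.506). The male SD was 7.39 times what counting error alone would give, the widest excess of the 10 members. Without male replicate 1 the log2 fold change was -0.27, and without male replicates 1 and 2 it was -0.43.

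B lineage genes were also highest in male replicate 1. Summed over 11 genes (Cd79a, Cd79b, Pax5, Ebf1, Vpreb1, Vpreb3, Igll1, Ms4a1, Blnk, Rag1 and Cd22), they ran from 14.3 to 19.4 CPM in female mice and from 18.1 to 54.3 CPM in male mice, with none of the 11 at 0 over all libraries. The 9 tested had negative fold changes (median log2 fold change -1.43), of which edgeR called 0, with 6 at an unadjusted p under 0.05 (9.17% of all genes), and DESeq2 called 2 of 11, Cd79a and Pax5 (0.337% of all genes). Without male replicates 1 and 2, 6 of the 9 were negative (median -0.95). In that fit 4 of the 9 had an unadjusted p under 0.05, beside 841 of all 15024 genes tested. In the fit at 1 CPM in 5 libraries the median of the 6 tested was -0.49. Male replicate 1 was the mouse at 54.3 CPM. Male replicate 4, second for Spib, was at 32.0 CPM, but male replicate 2 was at 33.4 CPM with a Spib level of 1.66 CPM. The part of B lineage cells in the Spib values was not tested.

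Siglech encodes Siglec-H, a sialic acid-binding surface receptor that marks mouse plasmacytoid dendritic cells (chromosome 7: 55768178 to 55778925). Its levels were 1.84, 2.23, 1.79, 3.57 and 2.82 CPM in female replicates 1 to 5 and 3.52, 2.96, 1.41, 1.96 and 1.64 CPM in male replicates 1 to 5. Each sex held high and low mice, with female replicate 4 and male replicate 1 at the top. The means were 2.45 ± 0.748 CPM in female mice and 2.30 ± 0.905 CPM in male mice (SD, n = 5 each), a log2 fold change of 0.09 with a 95% interval of -0.54 to 0.73 (edgeR adjusted p = 0.878). Without male replicates 1 and 2 it was 0.55 (adjusted p = 0.925, with 0.674 to 0.995 over all alternatives). Its sign turned without female replicate 4 (-0.079) and without male replicate 3 (-0.043) or 5 (-0.0035).

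Cox6a2, the heart and muscle form of a cytochrome c oxidase subunit that plasmacytoid dendritic cells also use (chromosome 7: 128205435 to 128206387), was at 0.922, 1.32, 0.897, 1.83 and 1.37 CPM in female mice. In males it was at 2.39, 2.18, 1.32, 1.60 and 1.92 CPM. Of the females 3 lay below the lowest male, and 0 lay above the highest. The means of 1.27 ± 0.383 CPM in female mice and 1.88 ± 0.430 CPM in male mice (SD, n = 5 each) gave a log2 fold change of -0.57 (SE 0.26, unadjusted p = 0.0475, edgeR adjusted p = 0.506). The log2 fold change was -0.35 without male replicates 1 and 2 and between -0.73 and -0.46 in the fits that left out 1 library. Of its 680 exon bases 70 overlap Itgad, a leukocyte integrin gene on the other strand at 0.871 ± 0.421 CPM in female mice and 1.02 ± 0.773 CPM in male mice, and the labels do not say whether reads were counted by strand.

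Pacsin1 encodes an adaptor for membrane bending in endocytosis, which plasmacytoid dendritic cells need for their interferon response through Tlr9 (chromosome 17: 27655509 to 27711482). It had 10, 7, 5, 10 and 10 counts in females and 18, 7, 13, 9 and 14 in males. That is 0.365 ± 0.112 CPM in female mice and 0.538 ± 0.176 CPM in male mice (SD, n = 5 each; log2 fold change -0.56, SE 0.33, edgeR adjusted p = 0.507), and the log2 fold change was -0.41 without male replicate 1. The spread between mice was close to counting error, at 0.889 times in females and 1.14 times in males. Klk1, a tissue kallikrein protease gene (chromosome 7: 44225360 to 44229618), had 1, 1, 4, 6 and 1 counts in females and 1, 7, 9, 0 and 3 in males. The count of 0 in male replicate 4 allows up to 0.120 CPM (3 counts), and the ratio of scaled counts of female over male mice was 0.631 (95% counting interval 0.288 to 1.33). Mice have many near-identical Klk1b genes beside Klk1, so reads of Klk1 are uncertain.

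The 5 plasmacytoid members together reached 4.79 to 8.57 CPM in female mice and 5.12 to 15.3 CPM in male mice. Male replicate 1 alone was above 8.74 CPM, and the other 4 males lay between 5.12 and 8.74 CPM, so the male mean of 8.69 ± 3.90 CPM, beside 6.37 ± 1.56 CPM in female mice (SD, n = 5 each), rests largely on that mouse, and the male mean was 7.05 CPM without it. Of its 15.3 CPM, Spib made up 8.56.

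Clec9a had the largest positive fold change of the 7 members tested. It encodes DNGR-1, a lectin receptor for the actin of dead cells that marks type 1 conventional dendritic cells and, in mice, their precursors (chromosome 6: 129408862 to 129424763). Its levels were 1.75, 1.57, 2.82, 2.95 and 1.88 CPM in female replicates 1 to 5 and 2.10, 1.51, 1.07, 0.922 and 1.36 CPM in male replicates 1 to 5. All 5 females lay above 4 of the 5 males, and male replicate 1 lay among the females. Clec9a averaged 2.19 ± 0.642 CPM in female mice and 1.39 ± 0.458 CPM in male mice (SD, n = 5 each), a log2 fold change of 0.66 (SE 0.28, 95% interval 0.05 to 1.26, unadjusted p = 0.0353). The edgeR adjusted p was 0.506, so the gene was not called. Without male replicate 1 the log2 fold change was 0.85, and without male replicates 1 and 2 it was 0.97 (adjusted p = 0.473, with 0.323 to 0.703 over all alternatives). Of the 3293 exon bases of Clec9a 184 also belong to Clec1b, the platelet receptor CLEC-2, on the same strand. Clec1b was at 39.2 ± 5.69 CPM in female mice and 34.6 ± 15.9 CPM in male mice, and the labels do not say how reads in the shared stretch were assigned.

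Xcr1, the chemokine receptor through which type 1 conventional dendritic cells meet XCL1-releasing lymphocytes (chromosome 9: 123852315 to 123862029), had 1, 9, 13, 20 and 10 counts in females and 14, 9, 7, 9 and 3 in males. Its ratio of scaled counts of female over male mice was 1.22 (95% counting interval 0.801 to 1.88). Batf3, the AP-1 family factor that this class requires (chromosome 1: 191097847 to 191108945), had 4, 2, 1, 2 and 0 counts in females and 2, 1, 6, 0 and 4 in males, a ratio of 0.672 (0.253 to 1.70). Its 0 counts in female replicate 5 and male replicate 4 allow up to 0.117 and 0.120 CPM. Like that of Klk1, these intervals pool the mice of each sex and cover counting error only, so they leave out the spread between mice. The SD between mice was 2.21 (females) and 1.31 (males) times counting error for Xcr1, and 1.18 and 1.45 times for Batf3. Copies made by PCR were not told apart either.

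Zbtb46 encodes a zinc finger repressor that marks the conventional dendritic cell lineage and, in mice, is also made by erythroid progenitors and endothelium (chromosome 2: 181387762 to 181459426). It had 34.7, 36.9, 31.1, 29.4 and 29.3 CPM in female replicates 1 to 5 and 20.9, 23.5, 30.1, 34.6 and 34.1 CPM in male replicates 1 to 5. Male replicates 1 and 2 were the lowest of the 10 mice, and the other 3 males lay within the range of the females. The means were 32.3 ± 3.39 CPM in female mice and 28.7 ± 6.19 CPM in male mice (SD, n = 5 each; log2 fold change 0.17, SE 0.15, edgeR adjusted p = 0.577). Without male replicates 1 and 2 the sign turned, to -0.031. The same 2 males had the highest summed level of 12 erythroid genes, 49772 and 30448 CPM. Females had 6226 to 10696 CPM and the other males 12791 to 25050. Male replicate 4 was the mouse at 25050 CPM, with Zbtb46 at 34.6 CPM. Globin RNA made up most of this sum. Log2 fold changes were negative for 9 of the 12, among them Hba-a1 (-1.86), Hbb-bs (-2.25) and Gata1 (-0.01). The 3 positive ones were Klf1 (0.05), Epor (0.11) and Tfrc (0.11). None of the 12 was at 0 over all libraries, and their part in the Zbtb46 values was not tested.

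**Figure D3:**
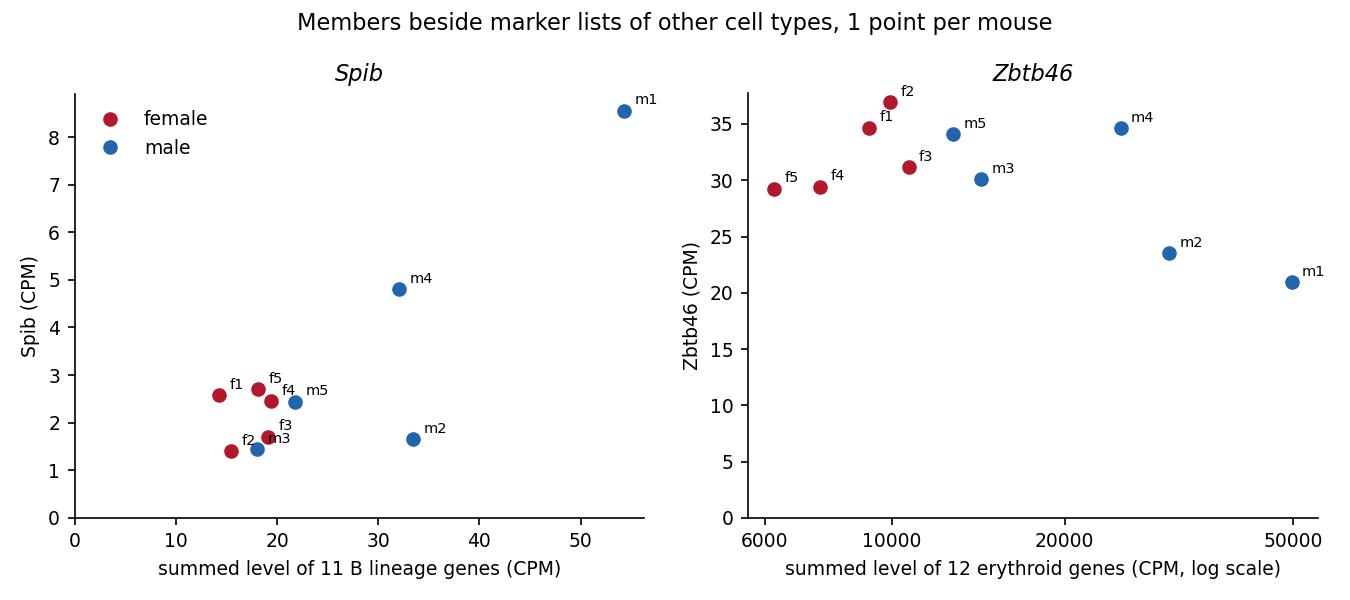
Spib against the summed level of 11 B lineage genes (left, CPM) and Zbtb46 against that of 12 erythroid genes (right, CPM, log axis), 1 point per mouse, labelled f1 to f5 for females and m1 to m5 for males. Male replicate 1 has the highest Spib level (8.56 CPM) and B lineage sum (54.3 CPM). Male replicates 1 and 2 have the lowest Zbtb46 levels (20.9 and 23.5 CPM) beside the highest erythroid sums, which are mostly globin RNA.

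Itgax encodes CD11c, the integrin alpha chain used to mark dendritic cells, which monocytes and macrophages can also carry (chromosome 7: 128129547 to 128150657). It was at 3.20, 3.01, 2.22, 5.45 and 4.07 CPM in female mice and 6.54, 3.06, 3.24, 4.09 and 4.60 CPM in male mice. Male replicate 1 was the highest, with female replicate 4 next, as for Siglech in reverse order. Itgax averaged 3.59 ± 1.23 CPM in female mice and 4.31 ± 1.40 CPM in male mice (SD, n = 5 each; log2 fold change -0.26, SE 0.27, edgeR adjusted p = 0.624), and the log2 fold change was -0.07 without male replicate 1. Macrophage genes, summed over 12, were also highest in male replicate 1 (131 CPM) and, among females, in replicate 4 (78.8 CPM). They lay between 33.7 and 78.8 CPM in female mice and between 25.8 and 131 CPM in male mice, with none of the 12 at 0 over all libraries. Monocyte genes, over 10, lay between 257 and 449 CPM in female mice and between 309.6 and 829 CPM in male mice, again with male replicate 1 on top. Their part in the Itgax values was not tested.

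Zbtb46 made up most of the conventional total. It took 75.8% to 88.0% of the summed CPM of the 5 conventional members in females and 69.2% to 86.6% in males. The sum was 38.6 ± 2.51 CPM in female mice and 34.8 ± 5.41 CPM in male mice (SD, n = 5 each). Without Zbtb46 the 4 remaining genes summed to 6.32 ± 1.78 CPM in female mice and 6.19 ± 1.83 CPM in male mice, a difference well within the spread between mice.

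**Figure D4:**
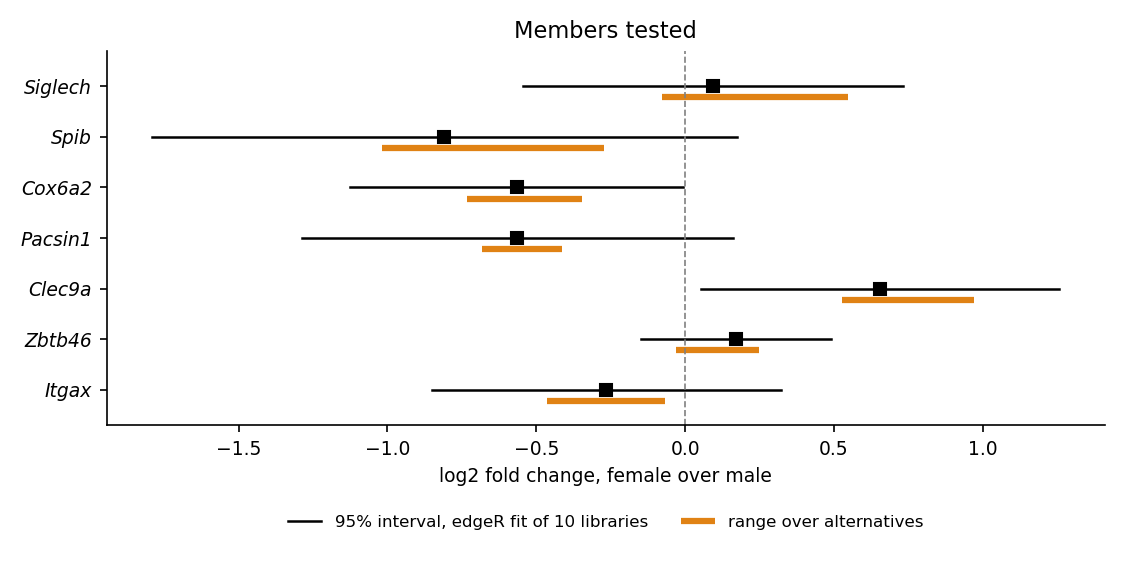
Log2 fold change, female over male, of the 7 members tested (squares) with the 95% interval of the edgeR fit (black lines) and the range over all alternative fits (orange). The intervals of 5 members include 0, and those of Clec9a (0.05 to 1.26) and Cox6a2 (-1.13 to -0.01) lie on either side of it.

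Members varied together only loosely over the mice. Among the 7 tested there are 21 pairs, and in log2 CPM 0 of them passed after adjustment over the 21 (permutation test). The 6 plasmacytoid pairs had positive coefficients, with Pearson's r between 0.10 and 0.58 (n = 10 mice). Itgax went highest with 3 plasmacytoid genes. With Pacsin1 its r was 0.75 (Spearman's rho 0.72, permutation p = 0.0122 and 0.0239, adjusted p = 0.128 and 0.258), and r was 0.35 without the 2 mice farthest from the median of Pacsin1. With Spib its r was 0.75 (rho 0.67, permutation p = 0.0118 and 0.0399, adjusted p = 0.128 and 0.258), and r was 0.64 without the 2 farthest mice. With Cox6a2 its r was 0.73 (rho 0.71, permutation p = 0.0182 and 0.027, adjusted p = 0.128 and 0.258), and r was 0.41 without them. Siglech and Zbtb46 had an r of -0.65 (rho -0.53, permutation p = 0.0412 and 0.122, adjusted p = 0.217 and 0.322), which was -0.34 without male replicates 1 and 2. Without male replicates 1 and 2 the r of Itgax was 0.63 with Pacsin1, 0.53 with Spib and 0.87 with Cox6a2. In counts this low, these coefficients are descriptions.

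The genes whose levels were most like the plasmacytoid sum, of 11252 compared in log2 CPM over the 10 mice, were Lin7c, a scaffold protein of cell junctions (r = 0.97, rho = 0.98), and Wls, which carries Wnt proteins to the surface (r = 0.96, rho = 0.94). Selenop, a secreted selenoprotein, had an r of 0.96 (rho 0.89), the Toll-like receptor inhibitor Irak3 0.95 (rho 0.93) and the monocyte chemokine receptor Ccr2 0.94 (rho 0.83). They were picked for their r, which was between 0.81 and 0.91 without female replicate 3 and male replicate 1, the mice farthest from the median. The conventional sum, which is mostly Zbtb46, was most like Plekhn1, Katnal1, Tarsl2, Smpd4 and Abcc5 (r = 0.97 for each). Their r was between 0.84 and 0.90 without male replicates 1 and 2.

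Other genes of the dendritic lineage gave no call either. Of 61 such genes in 5 lists 51 were tested, and 0 were called. A negative fold change was found in 38 of the 51, against 52% of all genes tested, and the median was -0.23, against -0.01 over all genes. This leaning rests largely on male replicate 1. Without it the count was 31 of 52 with a median of -0.08, whereas without male replicate 2 alone it was 37 of 51 with a median of -0.27. Without both it was 29 of 52 with a median of -0.02. At an unadjusted p under 0.05, 1 gene had a positive and 6 had a negative fold change, against 3.76% and 5.41% of all genes. Genes of mature neutrophils, summed over 12, were at 291 to 1085 CPM in female mice and 236 to 9610.4 CPM in male mice, with male replicates 1 and 2 highest and none of the 12 at 0 over all libraries. Their part in the leaning was not tested.

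Among 17 other plasmacytoid genes, all tested, 12 had a negative value (median log2 fold change -0.25). Without male replicates 1 and 2 it was 9 of 17 (median -0.06). The smallest p belonged to Cbfa2t3, a transcriptional corepressor of progenitors and erythroid cells, at 101 ± 15.2 CPM in female mice and 70.2 ± 12.4 CPM in male mice (log2 fold change 0.52, unadjusted p = 0.00308, edgeR adjusted p = 0.506). All 5 females lay above all 5 males for it, as for 1.06% of genes tested. Ly6d, a surface protein of lymphoid progenitors and plasmacytoid precursors, was at 2.96 ± 0.617 CPM in female mice and 5.39 ± 2.10 CPM in male mice (log2 fold change -0.87, edgeR adjusted p = 0.506), with male replicate 1 at 8.81 CPM. The CD300 family receptor gene Cd300c had a log2 fold change of -0.91 and Pld4, an exonuclease of endosomes, of -0.50. The log2 fold change without male replicates 1 and 2 was 0.37 for Cbfa2t3, -0.48 for Ly6d, -0.47 for Cd300c and -0.09 for Pld4.

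For the type 1 conventional class, 9 of 12 listed genes were tested and 6 had a negative value (median log2 fold change -0.57, and -0.13 without male replicates 1 and 2). The factor Nfil3, which acts early in this lineage, was at 5.25 ± 0.999 CPM in female mice and 7.78 ± 2.15 CPM in male mice (edgeR adjusted p = 0.506). The repressor Bcl6 (-0.69), the lipid amidase Naaa (-0.59) and the sorting nexin Snx22 (-0.56) followed, given as log2 fold changes. With male replicates 1 and 2 left out, the values were -0.27 for Nfil3, -0.36 for Bcl6, -0.19 for Naaa and -0.64 for Snx22. Of the type 2 genes 9 of 10 were tested and 8 had a negative value (median log2 fold change -0.23), but male replicate 1 set this count. Without it 4 of 9 were negative (median 0.08), and without male replicates 1 and 2 it was 5 of 9 (median -0.0072). The lectin Mgl2 was at 1.37 ± 0.245 CPM in female mice and 2.42 ± 1.16 CPM in male mice (edgeR adjusted p = 0.506), and its close paralog Clec10a, with which it may share reads, was at 2.27 ± 1.09 CPM in female mice and 3.13 ± 1.22 CPM in male mice. The inhibitory receptor Sirpa had a log2 fold change of -0.53 and Notch2 of 0.22. When the same mice were left out, the log2 fold change was -0.47 for Mgl2, -0.0081 for Clec10a, -0.23 for Sirpa and -0.042 for Notch2, whose sign turned.

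All 12 genes of dendritic cell development were tested, and 10 had a negative value (median log2 fold change -0.11). Without male replicate 1 it was 6 of 12 (median -0.0017), and without male replicates 1 and 2 it was 8 of 12 (median -0.06). The lectin receptor Clec12a was at 52.3 ± 12.6 CPM in female mice and 84.0 ± 37.8 CPM in male mice, and Spi1, which encodes PU.1, at 56.1 ± 13.1 CPM in female mice and 80.0 ± 27.2 CPM in male mice (edgeR adjusted p = 0.506 for both). Male replicates 1 and 2 were the highest mice for both genes, at 139 and 108 CPM for Clec12a and 118 and 98.8 CPM for Spi1. The protease inhibitor Cst3 had a log2 fold change of -0.32 and the cytokine receptor Flt3 of -0.31. In the fit without these mice the log2 fold change was -0.15 for Clec12a, -0.12 for Spi1, -0.037 for Cst3 and -0.37 for Flt3. Of 10 maturation genes 4 were tested, with the lymph node homing receptor Ccr7 (-0.51) and the costimulatory ligand Cd86 (-0.73) negative and the actin bundler Fscn1 (0.43) and the cytokine signal inhibitor Socs2 (0.13) positive on the log2 scale. In the same fit the signs of Ccr7 (0.14) and Cd86 (0.40) turned, Fscn1 was at 0.91 and Socs2 at 0.34, and 1 of 5 tested was negative. The summed level over 10 genes was 3.43 to 6.21 CPM in female mice and 3.14 to 9.78 CPM in male mice.

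**Figure D5:**
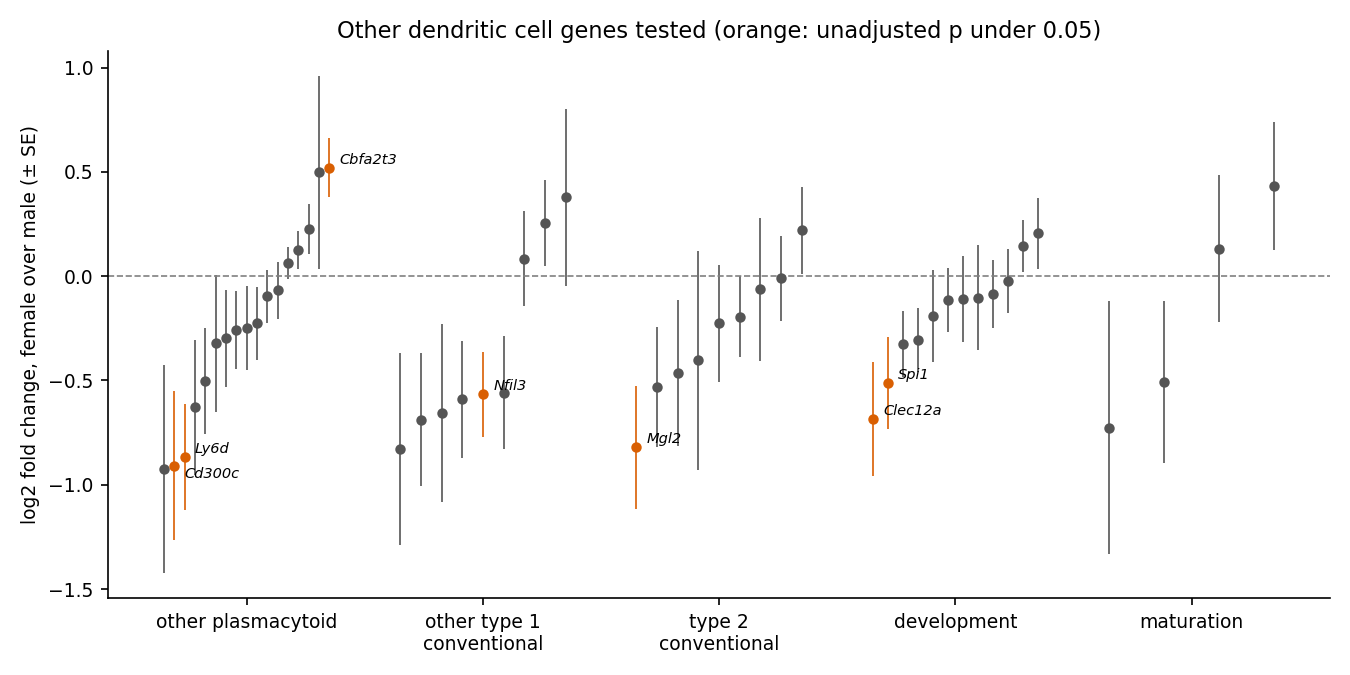
Log2 fold change, female over male, with its SE for the 51 other dendritic cell genes tested, by list, with the 7 genes at an unadjusted p under 0.05 in orange and named. With all mice in the fit, points lie mostly below 0 in all lists except maturation, and 0 of the 51 passed adjustment.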

How the data were processed

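The authors deposited raw read counts per Ensembl gene for 10 libraries, and a second table of normalized values (signal, counts divided by 1 size factor per library). The submitters' processing notes list mm10 and GRCm38.p6 as builds, and DESeq, STAR and featureCounts as tools, without roles or versions. Coordinates, exon lengths and list symbols are from GENCODE vM21 (GRCm38), which matched 25116 of 25178 genes by identifier. Counts were filtered with filterByExpr by sex (14674 kept), scaled by TMM and tested with the quasi-likelihood test of edgeR 4.0.16 (R 4.3.3), with sex as the only term and Benjamini-Hochberg adjustment over all genes kept. Fold changes are female over male. Their SE is the fold change over the square root of F. TPM used the union of exons and no TMM factors. Correlations used log2 CPM with a prior count of 2 and 100000 permutations.

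The members and lists were chosen with earlier results of these data known. Beside the members, the text names up to 4 genes of smallest p per dendritic cell list and the 5 genes most like each sum (from tested genes averaging 1 CPM or more, leaving out antigen receptor segments and predicted genes). Alternatives were the authors' size factors, DESeq2 1.42.0, no filter, 1 CPM in 5 libraries, a replicate block, each library left out, and male replicates 1 and 2 left out. The test was checked on simulated counts. Intervals cover counting error only where so named. Sex labels were the grouping. No protein sequence was used here, and 1 gene of the B lineage list is not reported here.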

Additional observations from a re-analysis of the deposited data

How the results depend on the processing

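Under every alternative run, 0 members were called. Over all genes 8 were called, 60 by DESeq2 (39 of them higher in females, against 3 of 8), 5 with the replicate number as a block, and 6 to 10 when 1 library was left out. The labels do not say whether same-numbered mice were paired. Deviations of same-numbered females and males correlated between -0.30 and -0.01 across genes. These values show no likeness by number, but cannot settle how the mice were handled, so the block is an alternative only. In the members, the block left the log2 fold change of Clec9a at 0.66 and moved that of Spib to -0.54. Signs turned for Siglech, between -0.079 and 0.30 when 1 library was left out, and for Zbtb46, at -0.031 without male replicates 1 and 2. The direction of Spib, Cox6a2, Pacsin1, Clec9a and Itgax held in all fits that tested them. Summed levels with 1 library left out were 5.81 to 6.76 CPM in females and 7.05 to 9.59 CPM in males for the plasmacytoid genes, and 37.8 to 39.4 CPM in females and 33.5 to 36.4 CPM in males for the conventional ones. Klk1, Xcr1 and Batf3 entered only the fit without a filter and DESeq2, which gave Batf3 no adjusted p, and Pacsin1 not the one at 1 CPM. The spread of Pacsin1 was close to counting error. For Batf3 it was 1.18 (females) and 1.45 (males) times counting error, and for Klk1 1.46 and 1.92 times. Spib in males and Itgax and Zbtb46 in both sexes varied well beyond it. Siglech was at 2.30 (females) and 2.81 (males) times counting error. For Clec9a it was 2.08 and 1.83 times, and for Cox6a2 1.64 and 1.48 times. Spib in females was at 1.87 times.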
